A study of Mus musculus with 394 samples.

Results

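*Satb1*, *Mn1* and *Csdc2* were 3 genes among 55487 in the full-length count table and 48531 in the UMI count table, in which a unique molecular identifier (UMI) tags each counted molecule. They were picked by symbol because their mRNAs were higher in ribosome immunoprecipitates (IPs) of the substantia nigra pars reticulata (SNr) than in IPs of the substantia nigra pars compacta (SNc). The SNr to SNc IP difference is therefore described below without a test, and comparisons that use those same SNr or SNc IPs are not free of that choice. The question put to the data was whether the SNr signal behaved as mRNA captured from dopamine neurons, read from IPs of the ventral tegmental area (VTA), of Cre- mice and of synaptosomes and from unselected tissue.

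All mice compared carried the RiboTag allele, an HA-tagged copy of the ribosomal protein eL22 that is switched on by Cre. Cre+ mice also carried DAT IRES-Cre, in which Cre is made wherever the dopamine transporter gene is active, so that midbrain dopamine neurons hold tagged ribosomes. Cre- mice carried the RiboTag allele alone, and their IPs measure RNA that binds with no tag present. An anti-HA IP was made from each lysate, and a small share of the same lysate was kept as Input, the RNA of all cells in the dissected piece. The full-length libraries came from Cre+ mice of 10 to 14 months, with 3 IPs and 3 Inputs from each of SNr, SNc and VTA. UMI libraries of the same age held 4 Cre+ and 6 Cre- IPs, with as many Inputs, from each of SNr, SNc, VTA and striatum. Further UMI libraries came from ventral midbrain synaptosomes of mice of 10 to 14 months (8 Cre+ and 6 Cre- IPs, 16 and 12 Inputs). Striatal synaptosomes of that age gave 4 Cre+ and 4 Cre- IPs, with 12 and 12 Inputs. From the striatum of P0, P7, P14 and P21 pups 62 libraries were compared. Further striatal libraries of P0 to P90 mice entered no comparison. Sorted particles of striatal and cortical synaptosomes came from DAT-Cre mice given AAV-EGFP and from VGLUT1-VENUS mice, labelled P90-150. Their labels name no RiboTag allele, and they entered no comparison. The labels do not name the mouse behind a library, so that p-values measure the spread between libraries. Synaptosome Inputs outnumber the IPs, so that several may share a lysate, and the fits took each as a separate library.

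SATB1 is a nuclear protein that binds AT-rich DNA and organizes chromatin loops. It is best known from T cells, and in dopamine neurons it is known as a repressor of *Cdkn1a*, the gene of the cell cycle inhibitor p21. MN1 is a transcriptional co-regulator without a known DNA-binding domain, first found at a chromosome break in meningioma and needed for development of the skull and palate. CSDC2 (also called PIPPin) is a cold shock domain protein of the brain that binds RNA, including mRNAs of replacement histones. Dopamine neurons send dendrites from the SNc down into the SNr, where a minority of their cell bodies also lies among GABAergic output neurons, and an SNr dissection holds all of these. RiboTag recovers mRNA on tagged ribosomes, and an enrichment in IP over Input is read against the Cre- IPs, since RNA also sticks to beads and antibody.

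*Satb1* (ENSMUSG00000023927.15) lies on the minus strand of chromosome 17 from 51736187 to 51833290 (GRCm38), with 19027 exon bases in 19 blocks. Of these, 156 exon bases are shared with Gm36931 on the same strand and 128 with Gm6934 on the opposite strand. *Mn1* (ENSMUSG00000070576.4) lies on the plus strand of chromosome 5 from 111417362 to 111457033, with 6940 exon bases in 2 blocks. *Csdc2* (ENSMUSG00000042109.8) lies on the plus strand of chromosome 15 from 81936759 to 81950941, with 4623 exon bases in 5 blocks. No exon base of *Mn1* or *Csdc2* is shared with another annotated gene. UMI libraries count molecules near the 3′ end and full-length libraries count fragments along the whole mRNA, so levels are compared within a kind of library only.

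Depth differed by kind of library. Full-length libraries held 3059148 to 15762443 assigned fragments, adult regional UMI libraries 3606 to 380689 UMIs, ventral midbrain synaptosomes 16533 to 111750, striatal synaptosomes 1137 to 54675 and postnatal striatum 19913 to 277963. The capture was first checked on dopaminergic mRNA. *Th*, the rate-limiting enzyme of dopamine synthesis, was 5.79 log2 units higher in full-length SNr IPs than in SNr Inputs, and 4.52 higher in Cre+ than in Cre- SNr IPs of the UMI libraries. All 10 core dopaminergic genes were called higher in full-length SNr IP than in Input. So were 9 of 9 dopamine neuron transcription factors and 5 of 5 genes of the ventral tier (*Aldh1a1*, *Sox6* and others). Of all genes 17.8% were called higher.

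In the full-length libraries *Satb1* was the most strongly captured of the 3 genes. Levels are counts-per-million (CPM) scaled by TMM. *Satb1* stood at 267, 322 and 349 CPM in the SNr IPs (312 ± 41.6, SD, n = 3), at 208, 224 and 303 CPM in the VTA IPs (245 ± 50.9) and at 76.4, 86.9 and 178 CPM in the SNc IPs (114 ± 55.6). Every SNr IP was above every SNc IP, the direction by which the gene was chosen, while SNr and VTA IPs overlapped. The Inputs ran the other way for SNr, with 41.8, 42.5 and 51.3 CPM in SNr, 63.3, 71.7 and 82.1 in SNc and 80.1, 83.8 and 92.2 in VTA. The SNr tissue thus had the lowest *Satb1* level of the 3 regions and its IPs the highest.

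**Figure D1:**
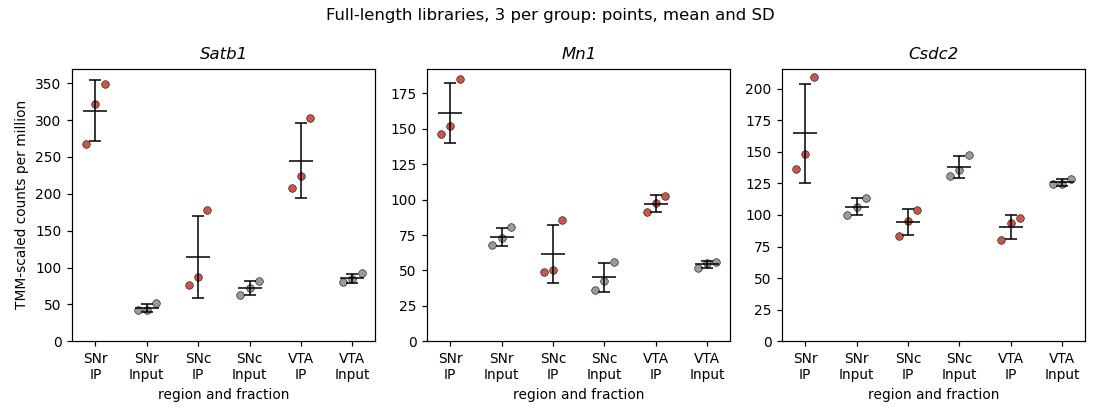
Full-length libraries: level of each gene (TMM-scaled CPM, y axis) in IPs and Inputs of SNr, SNc and VTA, with 3 libraries per group as points, the mean as a line and the SD as a bar. The 3 SNr IPs lie above the 3 SNc IPs for each gene, the direction by which the genes were chosen. For *Csdc2* the SNc and VTA IPs lie below their own Inputs.

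*Satb1* was 6.89-fold higher in SNr IP than in SNr Input (log2 fold change 2.79 ± 0.23, SE, adjusted p = 9.5e-10). The SNr IPs are those of the choice, so that this p-value is not free of it. Here 34.7% of the 17235 genes tested were called changed at an adjusted p under 0.05 (Benjamini-Hochberg over all genes, edgeR's quasi-likelihood test), and 17.8% were called higher, all 3 genes followed among them. In VTA, whose libraries had no part in the choice, *Satb1* was 2.87-fold higher in IP than in Input (log2 1.52 ± 0.22, adjusted p = 5.42e-06), with no overlap of groups, against a background of 34.2% of genes called. In SNc the difference was 0.66 ± 0.22 (adjusted p = 0.0226, 31.6% of genes called) and the groups overlapped. That call rested on the single SNc IP at 178 CPM, for without it (SNc IP replicate 1) the difference was 0.16 with an adjusted p of 0.484. It was also lost without SNc Input replicate 1 (0.56, adjusted p = 0.0997) or replicate 2 (0.64, adjusted p = 0.058). The enrichment over Input in SNr less that in VTA was 1.26 ± 0.31 for *Satb1* (5.98% of genes called), given as a description, since the contrast was added after the data were seen and its SNr IPs are those of the choice. Between VTA and SNc the enrichment of *Satb1* differed by 0.86 ± 0.31 and was not called in the reported fit (6.72% of genes called). This too is a description, since the contrast was added after the data were seen and its SNc IPs are those of the choice. The value was 0.88 with DESeq2, 0.93 without a filter and 1.36 without SNc IP replicate 1, the library at 178 CPM.

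Between IPs of different regions, *Satb1* was 2.74-fold higher in SNr than in SNc (log2 1.45 ± 0.22, description only, 14.9% of genes called). It was 1.10 ± 0.22 higher in VTA than in SNc (adjusted p = 0.000694, 18.3% of genes called), although the SNc IPs are those used in the choice. SNr and VTA IPs differed by 0.35 ± 0.21 (95% interval -0.07 to 0.77, adjusted p = 0.244, 24.3% of genes called). Among Inputs, *Satb1* was 0.67 ± 0.22 lower in SNr than in SNc (interval -1.11 to -0.24, adjusted p = 0.0731, 6.95% of genes called). That difference passed the threshold with DESeq2 (adjusted p = 0.0334), without a filter on low counts (0.000922) and with library totals as scaling (0.0446).

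*Mn1* was captured more weakly. It stood at 146, 152 and 185 CPM in the SNr IPs (161 ± 20.9, SD, n = 3), at 90.9, 97.6 and 103 CPM in the VTA IPs (97.1 ± 5.86) and at 48.6, 50.5 and 85.3 CPM in the SNc IPs (61.5 ± 20.6). The 3 IP groups did not overlap, in the order SNr, VTA, SNc, where SNr above SNc is the direction of the choice. The share of all genes whose groups do not overlap was not counted for any comparison. Inputs held 67.9, 72.7 and 80.7 CPM in SNr, 51.7, 55.1 and 56.0 CPM in VTA and 36.3, 42.9 and 56.1 CPM in SNc. Unlike *Satb1*, *Mn1* was higher in SNr than in SNc tissue before any capture, by 0.72 ± 0.19 log2 units (adjusted p = 0.0154, 6.95% of genes called). This Input call was lost without SNc Input replicate 1 (adjusted p = 0.129) or 2 (0.0613) and without SNr Input replicate 2 (0.0744).

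*Mn1* was 2.18-fold higher in SNr IP than in Input (log2 1.12 ± 0.18, adjusted p = 2.97e-05, 34.7% of genes called). It was 1.79-fold higher in VTA IP than in Input (0.84 ± 0.18, adjusted p = 0.000823, 34.2% of genes called). The groups did not overlap in either. In SNc the difference was 0.45 ± 0.18 (interval 0.09 to 0.82, adjusted p = 0.0634) and 1 of the 3 IPs was above all Inputs. It passed the threshold with library totals as scaling (0.75, adjusted p = 0.00153) and without SNc Input replicate 3 (0.65, adjusted p = 0.0185), SNc IP replicate 2 (0.60, 0.0222) or SNc IP replicate 3 (0.57, 0.035). The enrichment over Input in SNr less that in VTA was 0.28 ± 0.26 (interval -0.23 to 0.79), again as a description. The SNr and SNc IPs are those of the choice, so that the p-values here that use them are not free of it. Between IPs, *Mn1* was 2.61-fold higher in SNr than in SNc (log2 1.38 ± 0.18, description only, 14.9% of genes called). It was 0.73 ± 0.18 higher in SNr than in VTA (adjusted p = 0.00502, 24.3% of genes called) and 0.65 ± 0.18 higher in VTA than in SNc (adjusted p = 0.0135, 18.3% of genes called). The last of these was lost without SNc IP replicate 2 (0.51, adjusted p = 0.0966) or 3 (0.54, 0.0872) and without VTA IP replicate 3 (0.62, 0.0529), and reached 0.98 without SNc IP replicate 1.

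*Csdc2* behaved differently from both. Its SNr IPs stood at 136, 148 and 209 CPM (165 ± 39.3, SD, n = 3), its SNc IPs at 83.1, 95.6 and 104 CPM (94.1 ± 10.3) and its VTA IPs at 79.9, 93.9 and 97.7 CPM (90.5 ± 9.38). Inputs held 99.8, 106 and 114 CPM in SNr, 124, 124 and 129 CPM in VTA and 131, 136 and 147 CPM in SNc. The SNr IPs overlapped the SNc Inputs, and the SNc and VTA IPs lay below all Inputs of their own region.

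*Csdc2* was 1.54-fold higher in SNr IP than in SNr Input (log2 0.63 ± 0.14, adjusted p = 0.00125, 34.7% of genes called). It was lower in IP than in Input in SNc (-0.55 ± 0.14, adjusted p = 0.00401, 31.6% of genes called) and in VTA (-0.47 ± 0.14, adjusted p = 0.012, 34.2% of genes called). The SNr enrichment less the VTA enrichment was 1.10 ± 0.20, as a description for the same reason. The other p-values from SNr or SNc IPs are likewise not free of the choice. The VTA depletion was lost without VTA IP replicate 2 (-0.39, adjusted p = 0.0824) and without VTA Input replicate 1 (-0.41, 0.0719), 2 (-0.42, 0.0716) or 3 (-0.42, 0.0672). With library totals as scaling, SNc (-0.24, adjusted p = 0.202) and VTA (-0.16, adjusted p = 0.401) were not called, so that the depletion rests on the scaling. Between IPs, *Csdc2* was 1.75-fold higher in SNr than in SNc (log2 0.81 ± 0.14, description only) and 0.86 ± 0.14 higher in SNr than in VTA (adjusted p = 9.77e-05). VTA and SNc IPs differed by -0.05 ± 0.14 (interval -0.33 to 0.22, adjusted p = 0.843). Among Inputs, *Csdc2* was 0.37 ± 0.14 lower in SNr than in SNc, a difference that did not pass the threshold (adjusted p = 0.14).

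**Figure D2:**
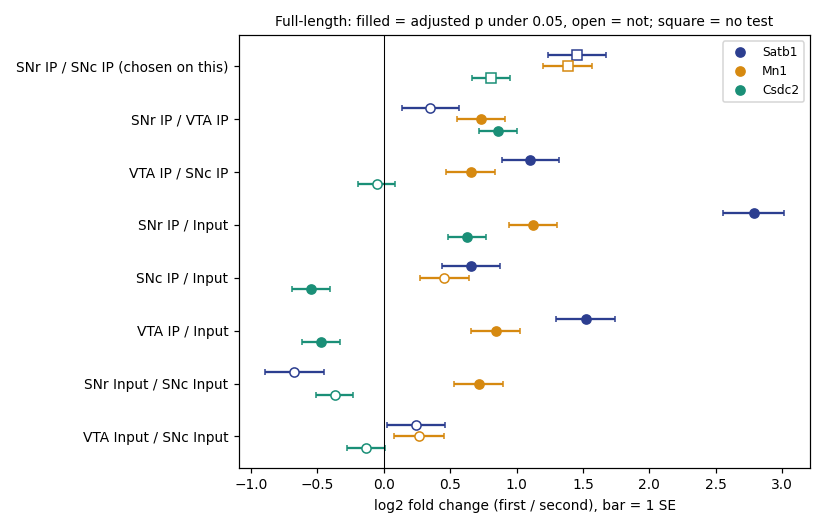
Full-length libraries: log2 fold change (x axis) with 1 SE as a bar for each gene in 8 comparisons. Comparisons with SNr or SNc IPs share libraries with the choice of the genes. Filled symbols have an adjusted p under 0.05, open symbols do not, and squares mark the SNr to SNc IP difference, which was not tested because the genes were chosen by it; *Satb1* in SNr IP over Input is the largest at 2.79.

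Ranked over the 6 full-length groups, mean *Satb1* fell from SNr IP through VTA IP and SNc IP to the VTA, SNc and SNr Inputs, and of neighbouring groups only VTA IP and SNc IP did not overlap and were called different. Mean *Mn1* ran SNr IP, VTA IP, SNr Input, SNc IP, VTA Input, SNc Input, with SNr IP and VTA IP called different; VTA IPs lay above all SNr Inputs, which was not tested, and the other neighbours overlapped. Mean *Csdc2* ran SNr IP, SNc Input, VTA Input, SNr Input, SNc IP, VTA IP. The SNr IPs and SNc Inputs of *Csdc2* overlapped, as did SNr Inputs with SNc IPs and SNc IPs with VTA IPs. RPKM is the CPM divided by exon length in kilobases. In SNr IPs the mean was 35.6 RPKM for *Csdc2*, 23.2 for *Mn1* and 16.4 for *Satb1*. In SNr Inputs these values were 23.0, 10.6 and 2.37 RPKM, so that the gap between *Csdc2* and *Satb1* was wider in tissue than in the IP. The length joins all annotated exons of a gene, 19027 bases for *Satb1*, and the order of the genes depends on it. By CPM, *Satb1* was above *Csdc2* in SNr IPs, at 267 to 349 against 136 to 209.

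Markers of some other cells, but not of all, were higher in SNr than in SNc IPs of the same libraries. Of 6 markers of striatal spiny neurons, whose axons end in the SNr, 6 were called higher in SNr than in SNc IPs, with a median log2 difference of 2.90 (all genes tested, -0.01), and their summed level was 308 to 584 CPM against 59.3 to 87.0. Of 8 endothelial and mural markers 5 were called higher (median 1.61), at a summed 252 to 307 CPM against 65.2 to 123. Of 8 astrocyte markers 3 were called higher, among them *Gfap*, the astrocyte filament protein (3.55), and *Aqp4*, a water channel (1.04), with a sum of 1885 to 2766 CPM against 1089 to 1705. Of 8 oligodendrocyte and 7 microglial markers 0 were called by edgeR's quasi-likelihood test or by DESeq2, with 5 and 1 at an unadjusted p under 0.05 (summed oligodendrocyte level 1983 to 2345 against 2071 to 3045 CPM), and of 7 GABAergic markers 1 was called, *Gad2*, which was 1.46 lower. The core dopaminergic genes summed to 8475 to 13046 CPM in SNr IPs and 9837 to 14631 in SNc IPs, with 1 of 10 called higher. Of all genes 5.73% were called higher and 9.18% lower in SNr than in SNc IPs. The part of these other cells in the SNr to SNc difference of *Satb1*, *Mn1* and *Csdc2* was not tested, and in bulk libraries fewer cells of a type and less RNA per cell cannot be told apart.

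Against VTA IPs the same markers stood further apart. All 8 astrocyte, 8 oligodendrocyte, 7 microglial, 8 endothelial and mural and 6 spiny neuron markers, and 6 of 7 GABAergic ones, were higher in SNr than in VTA IPs, and 5 of 10 core dopaminergic genes were lower. Of all genes 15% were called higher and 9.33% lower in SNr than in VTA IPs. Astrocyte markers summed to 352 to 515 CPM in VTA IPs. In VTA against SNc IPs, 8 of 8 astrocyte, 8 of 8 oligodendrocyte and 7 of 7 GABAergic markers were lower (12% of all genes). *Satb1* and *Mn1* were called higher in VTA than in the SNc IPs of the choice. The *Mn1* call held in 3 of 6 refits without 1 library. The part of these other cells in the member differences was not tested. Within SNr, 8 of 8 oligodendrocyte, 6 of 8 astrocyte, 6 of 7 microglial and 7 of 7 GABAergic markers were lower in IP than in Input, and for *Gfap* no difference was shown (-0.33 ± 0.22, adjusted p = 0.261). Endothelial and mural markers had 2 of 8 called higher and 0 lower. Of all genes 17.8% were called higher and 17% lower in SNr IP than in Input.

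A further group of mRNAs bound with no tag. *Bcar1*, *Nedd9* and *Sh3pxd2a* were 7.93, 5.57 and 4.91 log2 units higher in Cre- SNr IPs than in Cre- SNr Inputs of the UMI libraries. In the full-length libraries they were 6.64, 5.04 and 3.37 higher in SNr IP than in Input and 1.21, 2.03 and 3.15 higher in SNr than in SNc IPs, with a summed level of 5806 to 8024 CPM in SNr IPs, 1753 to 2916 in SNc IPs and 92.3 to 150 in Inputs. The full-length libraries were Cre+ only, so an enrichment over Input in them does not by itself separate tagged from untagged capture, and the Cre- IPs of the UMI libraries are taken next.

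In the UMI libraries *Satb1* rested on few molecules, and its Cre+ and Cre- IPs overlapped in SNr and in VTA. The 4 Cre+ SNr IPs held 42.1, 92.2, 198 and 202 UMI CPM, that is per-million of all UMIs in the library (2 to 12 UMIs each, 26 in all), and the 6 Cre- SNr IPs held 0 to 112 with a median of 28.8 (6 UMIs in all). Of the Cre+ IPs, 2 were above every Cre- IP. In VTA the Cre+ IPs held 50.0, 71.6, 145 and 169 (22 UMIs) and the Cre- IPs 0 to 51.3 with a median of 11.4 (5 UMIs), and 3 of the 4 were above every Cre- IP. A library with no UMI still allows a true count of up to 3, and these limits cover counting error only.

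Cre+ exceeded Cre- IPs for *Satb1* by 2.17 ± 0.69 log2 units in VTA (interval 0.82 to 3.51, adjusted p = 0.0412, 4.3% of 15798 genes called) and by 1.61 ± 0.66 in SNr (interval 0.32 to 2.90, adjusted p = 0.185, 3.02% of genes called). The VTA call was lost with DESeq2 (adjusted p = 0.0661), without a filter (0.0537), and without VTA Cre+ IP replicate 1 (1.93, adjusted p = 0.129) or 4 (1.97, 0.188) or Cre- IP replicate 2 (1.80, 0.144), 3 (1.95, 0.0995), 4 (2.03, 0.0755) or 6 (2.16, 0.0701). The SNr difference passed with TMMwsp scaling (2.08, adjusted p = 0.0413). When the same genotype difference in Inputs was subtracted, *Satb1* had 2.6 ± 1.03 in VTA (interval 0.58 to 4.61, adjusted p = 0.204, 2.04% of genes called) and 2.14 ± 1.11 in SNr (-0.02 to 4.31, adjusted p = 0.472, 1.31% of genes called). In SNc, Cre+ IPs held 0, 15.7, 21.5 and 160 and Cre- IPs 0 to 41.3, a difference of 0.44 ± 0.75 (-1.03 to 1.91, adjusted p = 0.818, 4.2% of genes called). In striatum, where the tagged ribosomes would be those of axons, 1 UMI of *Satb1* was found over the 4 Cre+ IPs and 6 over the 6 Cre- IPs (0.462% of genes called).

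**Figure D3:**
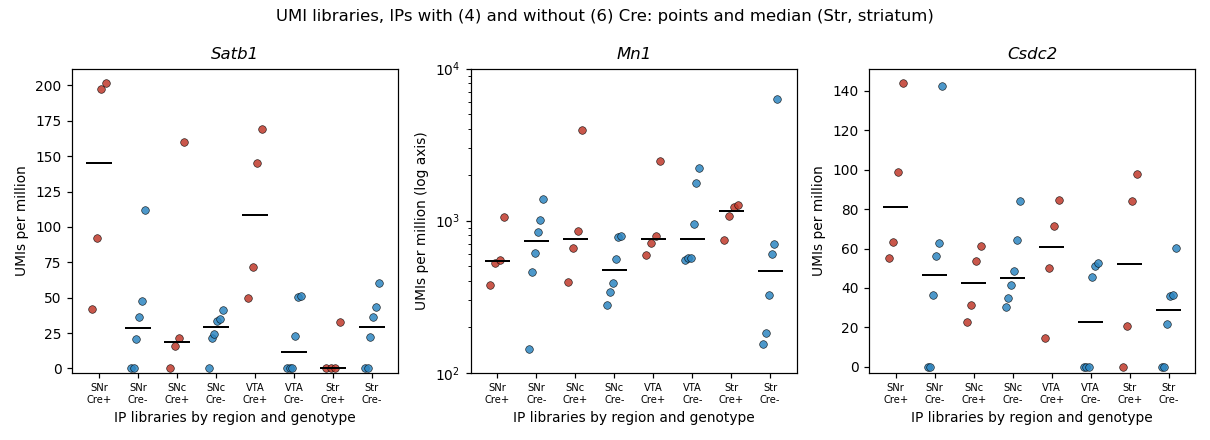
UMI libraries: level of each gene (UMI CPM, y axis, on a log axis for *Mn1*) in 4 Cre+ and 6 Cre- IP libraries per region, each a point, with the median as a line. For *Satb1*, 2 Cre+ SNr IPs and 3 Cre+ VTA IPs lie above all Cre- IPs of their region and the others overlap them; *Mn1* of Cre+ and Cre- IPs overlaps in each midbrain region, with 1 SNc Cre+ IP at 3938.

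*Mn1* gave no such pattern. Its Cre+ SNr IPs held 375, 526, 553 and 1054 UMI CPM and its Cre- SNr IPs 143 to 1385 with a median of 730, and no Cre+ IP was above all Cre- IPs. The difference was -0.60 ± 0.34 (interval -1.26 to 0.05, adjusted p = 0.373) in SNr and -0.03 ± 0.31 (-0.64 to 0.57, adjusted p = 1) in VTA, where Cre+ IPs held 597, 717, 797 and 2454 and Cre- IPs 553 to 2224. The upper end of the SNr interval is below the log2 difference of 1.12 between SNr IP and Input in the full-length libraries, a different contrast on a different kind of library. In SNc *Mn1* was 1.32 ± 0.30 higher in Cre+ IPs (adjusted p = 0.00128), a call that rested on Cre+ IP replicate 4 at 3938 (366 UMIs), the other Cre+ IPs being at 393, 663 and 858. Without that library the difference was 0.07 (adjusted p = 1), and DESeq2 gave 1.22 with an adjusted p of 0.292.

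*Mn1* was also recovered in IPs with no tag. Cre- IPs exceeded Cre- Inputs by 0.88 ± 0.29 in SNr (adjusted p = 0.0577, 4.75% of genes called) and by 0.88 ± 0.32 in SNc (adjusted p = 0.0959, 3.71% of genes called), which passed the threshold without a filter on low counts (adjusted p = 0.0168 and 0.0381). In VTA the difference was 0.56 (adjusted p = 0.413, 1.86% of genes called). In striatum it was 2.14 ± 0.27 (adjusted p = 3.72e-12, 4.84% of genes called), which came from Cre- IP replicate 3 at 6348 UMI CPM (210 UMIs, other IPs 154 to 698) and was 0.23 (adjusted p = 0.769) without it. Cre+ striatum IPs held 748, 1071, 1230 and 1272 UMI CPM of *Mn1* and differed from Cre- striatum IPs by -0.28 (adjusted p = 0.804) with that library and by 1.63 (adjusted p = 0.000287) without it.

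The SNr to SNc direction by which *Mn1* was chosen was not found in the UMI libraries. Cre+ SNr and SNc IPs differed by -1.20 ± 0.33 for *Mn1* and by 0.05 without SNc Cre+ IP replicate 4, against 1.58 ± 0.59 for *Satb1* and 1.04 ± 0.61 for *Csdc2* (descriptions only, 0.209% of genes called). The *Satb1* value was 2.98 without SNc Cre+ IP replicate 3, its highest SNc library. Among Cre- IPs, which had no part in the choice, SNr and SNc differed by 0.72 ± 0.32 for *Mn1* (adjusted p = 0.467), 0.42 for *Satb1* (0.964) and 0.29 for *Csdc2* (0.98), with 0.513% of genes called. In UMI Inputs the same differences were 0.37 for *Mn1* (adjusted p = 0.481), -0.39 for *Satb1* (0.825) and -0.69 ± 0.32 for *Csdc2* (0.287), with 2.57% of genes called.

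*Csdc2* did not separate Cre+ from Cre- IPs. In SNr the Cre+ IPs held 55.3, 63.1, 98.8 and 144 UMI CPM (17 UMIs) and the Cre- IPs 0 to 143 with a median of 46.4 (11 UMIs), and 1 Cre+ IP was above all Cre- IPs. The difference was 0.20 ± 0.60 (interval -0.97 to 1.37, adjusted p = 0.978). In SNc it was -0.56 ± 0.62 (-1.78 to 0.67, adjusted p = 0.656) and in VTA 0.46 ± 0.71 (-0.92 to 1.85, adjusted p = 0.805). Cre- IPs and Inputs of SNr had a fitted difference of 0.01 for *Csdc2*, and in VTA it was -1.43 ± 0.57 (adjusted p = 0.212).

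For reference, *Th* in Cre+ against Cre- IPs was 4.52 higher in SNr, 1.79 in SNc and 2.67 in VTA, and *Slc6a3*, the dopamine transporter, 4.42, 2.73 and 2.96. In the same SNr comparison 7 of 8 astrocyte, 7 of 8 oligodendrocyte, 3 of 7 GABAergic and 3 of 7 microglial markers were lower in Cre+ IPs. Of all genes 2.13% were called lower in Cre+ SNr IPs. The astrocyte sum was 1054 to 2124 UMI CPM in Cre+ SNr IPs and 2830 to 6961 in Cre- SNr IPs. Of the mRNAs that bind with no tag, *Bcar1* (-1.84) and *Sh3pxd2a* (-1.49) were lower in Cre+ SNr IPs and *Nedd9* had -1.16 (adjusted p = 0.0789). The median log2 difference of all genes between Cre+ and Cre- SNr IPs was -0.33; the *Mn1* value of -0.60 is below it and the *Csdc2* value of 0.20 above it.

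Synaptosomes are pinched-off nerve endings with their attached membranes, and in the ventral midbrain they include pieces of dendrite. *Satb1* was found there in 8 of 8 Cre+ IPs at 27.9 to 136 UMI CPM with a median of 103 (50 UMIs) and in 5 of 6 Cre- IPs at 0 to 107 with a median of 56.9 (7 UMIs). The difference was 0.72 ± 0.61 (interval -0.48 to 1.91, adjusted p = 0.674, 1.96% of 12960 genes called). *Csdc2* held 12.9 to 116 in Cre+ IPs and 0 to 121 in Cre- IPs, a difference of -0.12 (adjusted p = 0.961). In these IPs *Slc6a3* was 1.52 higher in Cre+ (adjusted p = 6.18e-07) and *Th* had 0.13 (adjusted p = 0.769), *Th* being also 1.22 higher in Cre- IPs than in Cre- Inputs.

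*Mn1* was abundant and very variable in these UMI libraries, which were on a plate of their own. Preparation and plate therefore cannot be told apart in its level. The 8 Cre+ midbrain IPs ran from 594 to 18377 UMI CPM with a median of 4436, the 6 Cre- IPs from 1707 to 4821 with a median of 2539, the Cre+ Inputs from 288 to 3597 and the Cre- Inputs from 386 to 3309. Cre+ IPs were on both sides of the Cre- range. Cre- IPs and Inputs differed by 0.82 ± 0.36 (adjusted p = 0.368, 2.2% of genes called). The difference between Cre+ and Cre- IPs was 1.34 ± 0.40 (interval 0.56 to 2.12, adjusted p = 0.0538), and was past the threshold with TMMwsp (1.57, adjusted p = 0.00551), with library totals (1.20, 0.0405) and in 6 of 14 refits that left out 1 IP. With the genotype difference in Inputs subtracted, where Inputs may share lysates, it was 1.89 ± 0.48 (adjusted p = 0.0247, 1.03% of genes called). This was lost with DESeq2 (1.91, adjusted p = 0.0845) and without Cre+ IP replicate 5, the highest library (1.36, 0.0951), or Cre- IP replicate 2 (1.81, 0.0622), 3 (1.79, 0.0683) or 6 (1.82, 0.0623).

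**Figure D4:**
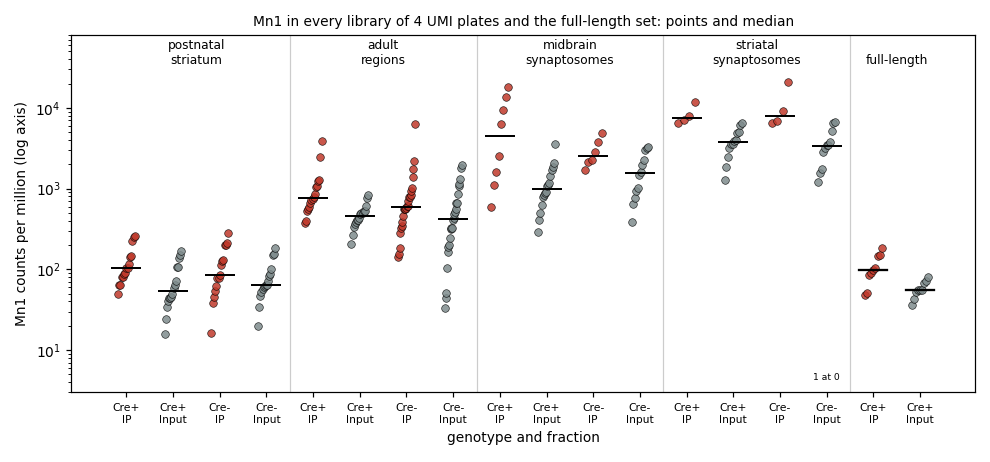
*Mn1* in every library of 4 UMI experiments and of the full-length experiment (CPM on a log axis; 1 striatal synaptosome Input with no count is marked at the bottom). Levels reach 18377 in a Cre+ midbrain synaptosome IP and 21033 in a Cre- striatal synaptosome IP; full-length and UMI CPM are not on a common scale.

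In the UMI libraries of striatal synaptosomes, also on a plate of their own, *Mn1* was high in both genotypes. Cre+ IPs held 6533, 7102, 7871 and 11688 UMI CPM and Cre- IPs 6590, 6883, 9206 and 21033, a difference of -0.31 ± 0.27 (adjusted p = 0.985, 0.257% of 7002 genes called). *Mn1* ranked from 2 to 9 among all genes in these 8 IPs. It was 1.45 ± 0.21 higher in Cre- IPs than in Cre- Inputs (adjusted p = 2.31e-09, 4.21% of genes called). The call was kept in 4 of 4 refits without 1 Cre- IP (1.08 to 1.58). Inputs may share lysates, and taking each as a separate library can make this p-value too small. *Satb1* had 43.6, 47.1, 91.5 and 136 in the Cre+ IPs (1, 1, 2 and 3 UMIs) and 0, 0, 0 and 35.1 in the Cre- IPs (1 UMI). The groups did not overlap, and the difference of 2.62 ± 0.99 (interval 0.67 to 4.57) did not pass over all genes (adjusted p = 0.621). *Csdc2* held 90.7 to 236 in Cre+ IPs and 35.1 to 181 in Cre- IPs (0.79, adjusted p = 0.985).

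In the postnatal striatum none of the genes had a genotype difference in IP over Input that passed the threshold: the values were 0.41 for *Mn1* (adjusted p = 0.971), -0.06 for *Satb1* (1) and -0.22 for *Csdc2* (0.997). In that comparison 0% of 15867 genes were called by edgeR's quasi-likelihood test, 0 by DESeq2 and 4 by edgeR without a filter, and 805 had an unadjusted p under 0.05. Cre- IPs against Cre- Inputs had *Csdc2* lower by 0.75 ± 0.18 (log2 -0.75, adjusted p = 0.000418) and *Mn1* higher by 0.46 ± 0.18 (adjusted p = 0.0426), with 27.4% of genes called and *Satb1* at 0.49 (adjusted p = 0.0985). The *Mn1* call was lost with TMMwsp (0.35, adjusted p = 0.143) and without a filter (0.0657). Pooled by age over the libraries of this comparison, *Mn1* stood at 159, 92.6, 62.1 and 54.4 UMI CPM at P0, P7, P14 and P21. *Csdc2* stood at 94.4, 101, 61.8 and 48.3 and *Satb1* at 35.2, 54.0, 47.7 and 48.7. Further striatal UMI libraries of these ages, on other plates, entered no comparison, and *Mn1* ranked otherwise there. In P21 Cre+ IPs its rank by count was 2016 to 3137 here, and 30 to 50 and 19 to 22 on those plates. In P14 Cre- Inputs it was 2311 to 5002 here, and 5722 to 6643 and 151 to 264 there. Age was not tested.

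Relatives of *Csdc2* were examined in the full-length libraries. Of 6 cold shock domain genes 1, *Csdc2*, was called higher in SNr IP than in Input and 3 lower, where 17.8% of all genes were called higher and 17% lower. *Carhsp1*, its nearest relative (-2.27), and the RNA-binding *Ybx1* (-1.35) and *Ybx3* (-1.75) were lower, while *Lin28b* was not called (-1.58, adjusted p = 0.0547). In SNc 0 were called higher and 3 lower (16.8% and 14.8% of all genes), and in VTA 0 higher and 5 lower (15.5% and 18.6% of all genes), *Csdc2* being lower in both.

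Genes tied to the function of the members gave mixed values. Among 16 chromatin genes whose proteins work with SATB1 or MN1, 3 were called higher in SNr IP than in Input, among them *Smarcb1*, a chromatin remodeler subunit (1.07), and *Ctnnb1*, beta-catenin (0.69), and 5 lower, among them the acetyltransferases *Crebbp* (-1.07) and *Ep300* (-0.91). Of all genes 17.8% were called higher and 17% lower. Between SNr and SNc IPs 0 were higher and 3 lower (5.73% and 9.18% of all genes), with *Crebbp* at -0.50. *Cdkn1a*, the target that SATB1 represses, had 1.13 in SNr IP over Input (adjusted p = 0.0504), was 1.47 higher in SNr than in VTA IPs (adjusted p = 0.0193) and had 0.84 between SNr and SNc IPs (adjusted p = 0.213). Of the histone mRNAs, *H3f3b* was higher in IP than in Input in SNr (0.39, adjusted p = 0.0374), SNc (1.05) and VTA (0.47) and was lower in SNr than in SNc IPs (-0.47, adjusted p = 0.0254), while *H3f3a* and *H1f0* were not called in SNr IP over Input or between SNr and SNc IPs.

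Over the 18 full-length libraries and 8295 genes of at least median level, the profiles most like that of *Satb1* were those of *Rab3c* (r = 0.97), *Grip2* (0.96) and *Micu3* (0.96), a synaptic vesicle GTPase, a scaffold of glutamate receptors and a regulator of mitochondrial calcium uptake. Those most like *Mn1* were *Sh3pxd2a* (0.93) and *Cplx2* (0.93), the first of them one of the mRNAs bound with no tag. For *Csdc2* they were *Btbd9* (0.84), *Col4a2* (0.84), a basement membrane collagen, and *Slx4* (0.79). Among the members r was 0.77 for *Satb1* and *Mn1*, 0.26 for *Mn1* and *Csdc2* and 0.17 for *Satb1* and *Csdc2*. These coefficients are Pearson's, on log2 CPM, and describe libraries that share fraction and region.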

How the data were processed

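The authors deposited tables of counts per gene, with UMIs collapsed for the UMI libraries. Per the labels and the study's methods, rRNA reads of the full-length libraries were removed (bowtie2), the rest was mapped by STAR 2.6.7a on GRCm38.p6, and featureCounts 1.6 assigned it to GENCODE M25 genes. UMI reads were counted on vM10. All 394 libraries (18 full-length, 376 UMI) were read as deposited, and 0 columns were left unmapped. Gene positions and exon lengths come from GENCODE vM21 of the same build.

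Tests used edgeR 4.0.16 (quasi-likelihood) in R 4.3.3, with Benjamini-Hochberg adjustment over all genes at 0.05. For the full-length libraries filterByExpr was the filter and TMM the scaling. Scale factors relative to library totals were 0.86 to 0.92 in Inputs and 1.05 to 1.18 in IPs. UMI libraries were filtered at 10 UMIs over the libraries of an experiment and scaled by DESeq2 size factors. That choice over TMMwsp came from an earlier simulation, in which TMMwsp shifted unchanged genes of such sparse libraries. TMMwsp was not run on the simulated counts made here. UMI CPM are relative to the library total. The SE of a log2 fold change is its size over the square root of F, and 95% intervals are 1.96 SE to either side. Each experiment was fitted over all its groups. The reported fit was tested on simulated counts for a single comparison of each experiment, and the other steps were not.

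The 3 genes and the gene lists were chosen with earlier results of these data known. Named were the members, their families and targets, reference genes, at most 4 genes per list by smallest p in SNr IP over Input, and for each member the 3 genes with the highest r; some genes that this rule names are not reported here. Alternatives were DESeq2 1.42.0, other scalings, no filter and leaving out single libraries. These were each full-length library, each Cre+ regional UMI library and each striatal synaptosome IP. No Cre- regional Input, synaptosome Input or postnatal library was left out in turn. Library totals only, leaving out libraries under 10000 UMIs, leaving out midbrain synaptosome IPs and Cre- regional IPs, and both contrasts between regions' IP over Input were added after the data were seen. For UMI refits without 1 library the dispersion trend of all libraries was held. Pooled postnatal libraries and sorted striatal and cortical synaptosomes outside these experiments entered no test. The UMI counts of the sorted particles are given as sums only.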

Additional observations from a re-analysis of the deposited data

Results flagged for a closer look

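Of 81 pairs of a gene and a group of 4 to 10 UMI libraries examined for a library far from the rest, 9 were marked, where chance marks about 5%. *Mn1* gave 5 of them, each with 1 library above the rest. These were SNc Cre+ IP replicate 4 at 3938 UMI CPM (others 393 to 858), SNr Cre- Input replicate 2 at 1806 (51.2 to 565), VTA Cre+ IP replicate 1 at 2454 (597 to 797), VTA Cre+ Input replicate 3 at 773 (362 to 432) and striatum Cre- IP replicate 3 at 6348 (154 to 698). High *Mn1* libraries were thus found in IPs and Inputs and in both genotypes.

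For *Csdc2*, SNr Cre- Input replicate 5 stood at 134 UMI CPM (18 UMIs, others 41.7 to 72.9). SNr Cre+ Input replicate 2 stood at 37.6 (1 UMI, others 54.2 to 55.7), and striatum Cre- Input replicate 4 of P0 at 87.7 (others 109 to 110). *Satb1* in SNc Cre+ IP replicate 3 stood at 160 (7 UMIs, others 0 to 21.5).

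The enrichment over Input in the full-length libraries was higher in SNr than in VTA by 1.26 for *Satb1* and by 1.10 for *Csdc2*. The SNr IPs of this contrast are those by which the genes were chosen, so that no test is given. In 48 libraries of sorted striatal and cortical synaptosomes and small particles, which no comparison used, the pooled levels were 1918 UMI CPM for *Mn1* (3788 UMIs), 31.4 for *Csdc2* (62) and 27.8 for *Satb1* (55).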

How the results depend on the processing

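No paired analysis was possible because replicate numbers follow accession order and the labels tie no Input or region to a mouse. Of the alternatives for single genes, 1477 kept direction and side of the threshold, 34 lost and 27 gained a call, 59 reversed and 7 moved without a test; of those for counts of called genes, 487 stayed within 1.5 times and 49 did not. In the full-length libraries no called difference of *Satb1*, *Mn1* or *Csdc2* reversed. The cause of the changes was not tested, beyond the smaller number of libraries in refits without 1 library. In UMI libraries the members had few molecules apart from *Mn1*, which limits precision.

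With DESeq2 the genes called were 156 for VTA against SNc Inputs and 1558 for SNr minus VTA enrichment (full-length; 78 and 1031 in the reported fit), and in UMI libraries 330 for the SNc genotype by fraction term (168), 4 for VTA against SNc Inputs (19), 93 for SNc minus striatum (37), and 0 for both striatal synaptosome genotype comparisons (18 and 8). DESeq2 turned *Satb1* in Cre- striatal synaptosome IP over Input to -0.91. TMMwsp gave 1152 genes for Cre- striatum IP over Input (765), 36 for SNr minus striatum (87, also 36 with library totals) and 383 for Cre+ against Cre- midbrain synaptosome IPs (254). Without a filter 149 were called for full-length VTA against SNc Inputs and 4 for the postnatal genotype by fraction term (0), and *Csdc2* between VTA and SNc IPs was 0.014. TMMwsp and library totals turned *Mn1* between Cre+ and Cre- VTA IPs to 0.10 and 0.076, *Csdc2* in Cre- SNr IP over Input to -0.74 and -0.39, *Satb1* in Cre- SNc IP over Input to -0.36 and -0.20, and in SNr minus striatum *Mn1* to 0.68 and 0.29 and *Csdc2* to 0.58 and 0.23. TMMwsp alone turned the SNr genotype by fraction term of *Mn1* to 0.22 and *Csdc2* between midbrain synaptosome IPs to 0.20. Without libraries under 10000 UMIs, *Csdc2* in Cre- SNr IP over Input was -0.039 and *Satb1* in Cre- SNc IP over Input -0.030. None of the reversed differences had passed the threshold.

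Without 1 library at a time, genes called in full-length comparisons ranged from 2778 to 5046 for SNr against VTA IP, 2016 to 4191 for VTA against SNc IP, 743 to 834 for SNr against SNc Input, 30 to 74 for VTA against SNc Input, 674 to 1431 for SNr minus VTA and 722 to 2270 for VTA minus SNc enrichment. In UMI libraries they ranged from 19 to 41 for Cre+ SNr against SNc IPs. Cre+ against Cre- IPs gave 273 to 455 in SNr, 393 to 619 in SNc, 46 to 86 in striatum, 164 to 277 in midbrain and 9 to 20 in striatal synaptosomes. The genotype by fraction term gave 123 to 213 in SNr, 211 to 311 in VTA, 24 to 46 in striatum and 81 to 154 in midbrain synaptosomes. SNr minus striatum gave 39 to 101 and SNc minus striatum 23 to 49. Cre- IP over Input gave 437 to 750 in SNr, 171 to 317 in VTA and 120 to 284 in striatal synaptosomes.

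Members whose log2 value changed sign without 1 library were *Csdc2* between full-length VTA and SNc IPs (-0.13 to 0.031), between Cre+ and Cre- SNr IPs (-0.078 to 0.99) and midbrain synaptosome IPs (-0.39 to 0.11), between Cre- SNr and SNc IPs (-0.50 to 0.57), in Cre- IP over Input of SNr (-0.78 to 0.29) and midbrain synaptosomes (-0.38 to 0.11), in the striatal synaptosome genotype by fraction term (-0.66 to 0.10) and in SNr (-0.79 to 0.46) and VTA minus striatum (-0.72 to 0.24). *Satb1* did so between Cre+ and Cre- SNc IPs (-0.96 to 0.85), in the SNc genotype by fraction term (-0.39 to 1.41), in Cre- IP over Input of SNc (-0.16 to 0.18) and striatal synaptosomes (-0.95 to 0.51) and between Cre- SNr and SNc IPs (-9.44e-05 to 0.69). *Mn1* did so between Cre+ SNr and SNc IPs (-1.56 to 0.051), between Cre+ and Cre- IPs of VTA (-0.75 to 0.36), striatum (-0.55 to 1.63) and striatal synaptosomes (-0.56 to 0.055), in the genotype by fraction term of SNc (-0.62 to 0.96) and striatum (-0.57 to 1.61) and in SNr (-2.17 to 0.011), SNc (-0.98 to 1.26) and VTA minus striatum (-0.79 to 1.53). Between Cre+ and Cre- striatum IPs *Mn1* passed the threshold at 1.63 (adjusted p = 0.000287) without Cre- IP replicate 3, against -0.28 with it.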
